A study of Homo sapiens with 3 samples.

Results

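The GRCh38 annotation of human chromosome 21 lists several protein-coding genes as near-identical copies, 1 on the long arm and the other on the short arm. U2AF1 and U2AF1L5, CBS and CBSL, and SMIM11A and SMIM11B form 3 such pairs, and their 6 genes were followed here among the 58735 genes counted in DU145 prostate cancer cells. The members are the rows that carry these 6 gene names. They were selected on their counts in these same libraries, for the differences that the copies showed between libraries, so their values are given as a description and without a test.

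DU145 is an established human cell line from prostate cancer, and its growth does not need androgen. RNA-seq of 3 libraries was deposited, 1 control library and 1 library each of cells carrying PD-L1 shRNA 1 and PD-L1 shRNA 2, to ask which genes respond to loss of PD-L1, the immune checkpoint ligand encoded by CD274. By the study's methods the knockdown lines received a pLKO.1 lentiviral hairpin vector, with the empty pLKO.1 vector as control, and puromycin was used for selection. The RNA-seq methods name the control cells only as DU145, so whether the control library carries the vector is not stated. The tissue label is prostate, the medium is DMEM in the labels and EMEM in the methods, and no treatment or time is given. Each condition is 1 library, and nothing states whether a library came from 1 culture or a pool, so every ratio between libraries compares those libraries and not the conditions.

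The labels were checked first. The control held 204 counts of CD274, the library labelled PD-L1 knockdown 1 held 213 and that labelled PD-L1 knockdown 2 held 224. Scaled to the library total as CPM, this was 13.8, 14.5 and 14.2. CD274 RNA was thus not lower in either labelled knockdown library. The header of the control's count column names another gene, RBM45, and the series text names a thyroid line, BCPAP. The libraries are therefore called by their labels throughout. The paper reports that its stable knockdown lines, DU145 among them, were checked for PD-L1 protein by Western blot. RNA counts do not measure that protein. The totals were 14733088, 14738298 and 15786457 counts, and 3 counts, the limit that a count of 0 allows, equalled 0.190 to 0.204 CPM. Epithelial KRT8 stood at 1091 to 1215 CPM, whereas the prostate luminal markers KLK3, KLK2, TMPRSS2 and FOLH1 had 0 counts in every library. Of the thyroid markers NKX2-1 had 1833 to 2590 counts and TG, the thyroglobulin gene, 3 to 15.

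U2AF1 encodes the small subunit of the splicing factor U2AF, which binds the AG dinucleotide at the 3′ splice site while the large subunit, U2AF2, binds the pyrimidine tract before it. CBS encodes cystathionine β-synthase, which joins homocysteine to serine and so opens the transsulfuration route from methionine to cysteine. SMIM11A and SMIM11B encode a small membrane protein with a single predicted membrane-spanning segment. When copies are nearly the same in sequence, a short read from either one can match both, and how a read with several matches was counted decides which copy receives it.

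The positions are those of GRCh38, as the count files and GENCODE give them. U2AF1 (ENSG00000160201) lies on the minus strand at chr21:43092956-43107587 and U2AF1L5 (ENSG00000275895) on the minus strand at chr21:6484623-6499261. CBS (ENSG00000160200) lies on the minus strand at chr21:43053191-43076943, beside U2AF1, and CBSL (ENSG00000274276) on the minus strand at chr21:6444869-6468040, beside U2AF1L5. SMIM11A (ENSG00000205670) lies on the plus strand at chr21:34375480-34407866 and SMIM11B (ENSG00000273590) on the plus strand at chr21:7744962-7777853. In the newer RefSeq table of GRCh38.p14, CBSL is listed as a synonym of CBS, and SMIM11A and SMIM11B as synonyms of 1 gene, SMIM11. Whether DU145 cells carry both annotated copies of a pair was not tested.

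How far the copies can be told apart was measured by cutting every annotated transcript into overlapping words of 31 bases and looking for each word in the other copy. Of the words of U2AF1, 96.3% were also in U2AF1L5, and of those of U2AF1L5, 96.2% were in U2AF1. CBSL shared 93.8% of its words with CBS, whereas CBS shared 55.9% with CBSL. CBS has 17 annotated transcripts over 6786 exonic bases, against 10 transcripts over 4004 bases for CBSL. SMIM11A shared 93.2% of its words with SMIM11B and 99.7% with any other gene, and SMIM11B shared 90.5% of its words with SMIM11A. With words of 100 bases the shared portions were 89.4% for U2AF1, 89.4% for U2AF1L5, 50.3% for CBS, 83.5% for CBSL, 93.3% for SMIM11A and 90.7% for SMIM11B.

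Within the coding sequence the copies of U2AF1 were closer still. Each of the 4 protein-coding transcripts of U2AF1 has a coding sequence that is found without a difference in a transcript of U2AF1L5, and the reverse held for all 4 of U2AF1L5. This was so for 3 of 8 protein-coding transcripts of CBS, looked for in CBSL, and for 0 of 5 of CBSL, looked for in CBS. The transcripts CBS-202 and CBSL-203 are both 2353 bases long in 18 exons, encode 551 residues that are the same throughout, and differ at a single base, C921T, counted from 1 at the 5′ end of the transcript with the CBS base first. The base is the third of codon 233, in exon 8, where CBS reads TAC and CBSL reads TAT for the same residue. Between these annotated transcripts, only a read that covers this base can tell the copies apart. Which base DU145 cells carry at either copy was not tested, so such a read need not show its copy. The base is shown in capitals with its coding surroundings, on the minus strand of GRCh38 at chr21:43065210-43065270 for CBS and chr21:6456888-6456948 for CBSL, from GENCODE transcripts.
CBS-202: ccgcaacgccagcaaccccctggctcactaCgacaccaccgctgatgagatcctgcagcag
CBSL-203: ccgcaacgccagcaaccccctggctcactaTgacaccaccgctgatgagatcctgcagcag

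The differences between the U2AF1 copies lay outside the coding sequence. U2AF1-203 and U2AF1L5-212, 1019 bases long, differ at A20C in the first of 9 exons, in the 5′ UTR, with the U2AF1 base first. The window around this base, capitals marking the base, lies on the minus strand at chr21:43107545-43107573 for U2AF1 and chr21:6499223-6499251 for U2AF1L5.
U2AF1-203: ggtgacgtctcccgAgggcgtcggcaggg
U2AF1L5-212: ggtgacgtctcccgCgggcgtcggcaggg
U2AF1-204 and U2AF1L5-204, 1675 bases long, differ at C144T and G463C, both again in the 5′ UTR. Apart from the stretches around these bases, nothing in these transcripts separates U2AF1 from U2AF1L5.

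SMIM11A-202 and SMIM11B-207, both 1074 bases long in 4 exons, are identical from end to end, so no read from this transcript can be assigned to either copy. Their coding sequence of 174 bases, 58 codons without the stop, starts with the ATG in capitals and is shown because it is the same in both copies. It lies on the plus strand in pieces between 34379505 and 34385639 of chromosome 21 for SMIM11A.
SMIM11A-202: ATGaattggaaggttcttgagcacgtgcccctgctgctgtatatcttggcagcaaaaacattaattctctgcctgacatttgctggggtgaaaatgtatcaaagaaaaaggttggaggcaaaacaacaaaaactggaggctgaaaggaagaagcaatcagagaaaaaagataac

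**Figure D1:**
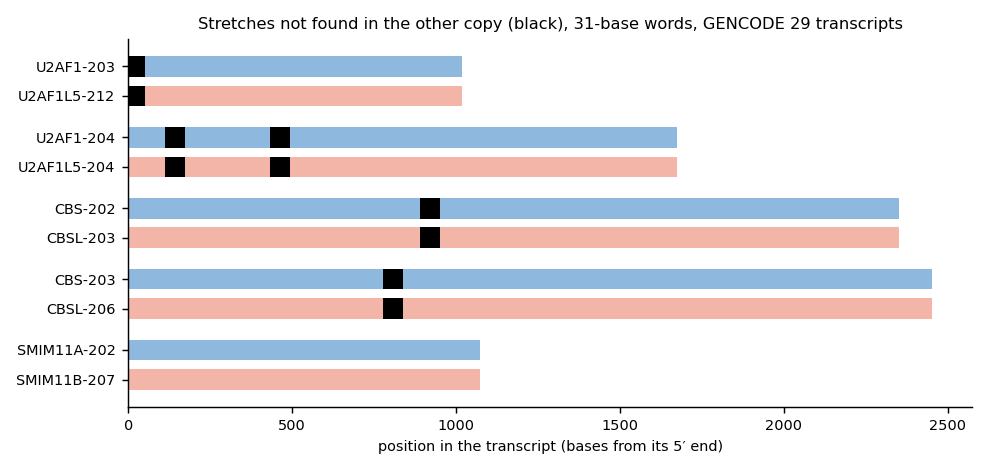
Transcripts of equal length from each pair, with the position in bases from the 5′ end on the horizontal axis; blue bars are long-arm copies, red bars short-arm copies, and black marks the stretches whose 31-base words are not in the other copy. Such a stretch spans bases 1 to 50 in U2AF1-203 and U2AF1L5-212 and bases 891 to 951 in CBS-202 and CBSL-203. Each of these stretches surrounds 1 differing base, and SMIM11A-202 and SMIM11B-207 have none.

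U2AF1L5 was assigned most of the counts of the splicing factor pair in all 3 libraries, and its count differed widely between them while that of U2AF1 hardly did. The count of U2AF1 was 100 in the control, 101 in PD-L1 knockdown 1 and 114 in PD-L1 knockdown 2. U2AF1L5 had 440 counts in the control, 118 in PD-L1 knockdown 1 and 1252 in PD-L1 knockdown 2. The labelled knockdown libraries therefore lay on opposite sides of the control for U2AF1L5.

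In CPM, U2AF1 stood at 6.79, 6.85 and 7.22 in the control and in PD-L1 knockdown 1 and 2. U2AF1L5 stood at 29.9, 8.01 and 79.3 CPM in the same order. To the control, the ratio of U2AF1 was 1.01 in PD-L1 knockdown 1 (exact 95% counting interval 0.758 to 1.34) and 1.06 in PD-L1 knockdown 2 (0.806 to 1.41). U2AF1L5 was 3.73-fold lower than the control in PD-L1 knockdown 1, a ratio of 0.268 (0.217 to 0.329), and 2.66-fold higher in PD-L1 knockdown 2 (2.38 to 2.97). Between the labelled knockdown libraries U2AF1L5 differed 9.91-fold (8.20 to 12.1) and U2AF1 1.05-fold (0.799 to 1.39). These intervals cover counting error only, since reads copied by PCR and counted without molecular identifiers need not be separate molecules.

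The share of the pair's counts that went to U2AF1L5 followed the same order. It was 81.5% in the control (Wilson 95% interval 78.0% to 84.5%), 53.9% in PD-L1 knockdown 1 (47.3% to 60.4%) and 91.7% in PD-L1 knockdown 2 (90.1% to 93.0%).

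The sum of the copies also differed between the libraries. The U2AF1 pair had 540 counts in the control, 219 in PD-L1 knockdown 1 and 1366 in PD-L1 knockdown 2, or 36.7, 14.9 and 86.5 CPM. The sum was 2.47-fold lower than the control in PD-L1 knockdown 1, a ratio of 0.405 (0.345 to 0.475), and 2.36-fold higher in PD-L1 knockdown 2 (2.14 to 2.61). PD-L1 knockdown 2 held 5.82 times the level of PD-L1 knockdown 1 (5.05 to 6.75). How reads that match several genes were counted, or whether they were dropped, is not given in the sources used here, and its part in these values was not tested. Fitted with edgeR as a single summed row, with both labelled knockdown libraries against the control, the log2 fold change was 0.48 ± 0.15 (standard error from the spread of all genes). This value lies between log2 ratios of -1.29 and 1.24, computed here and for the other pairs with a prior count of 2, whose SD was 1.79 (n = 2), and it describes neither library.

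**Figure D2:**
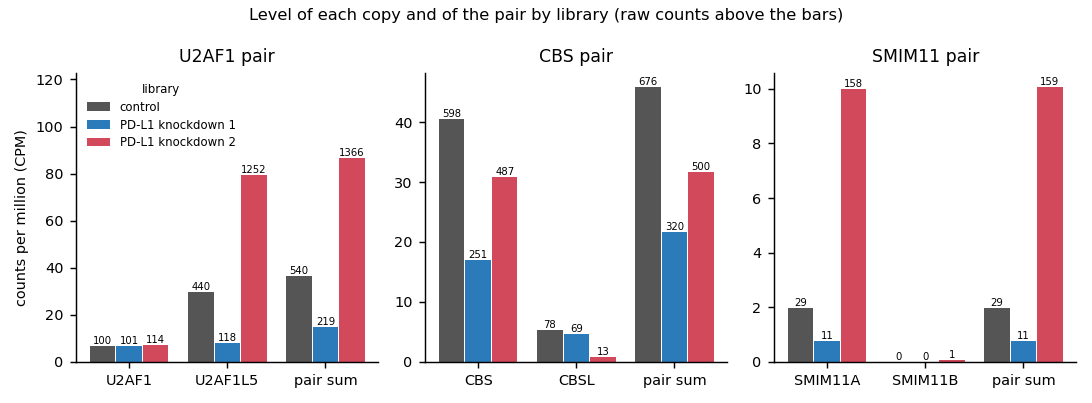
Bars give the level of each copy and of each pair sum in CPM in the control (grey), PD-L1 knockdown 1 (blue) and PD-L1 knockdown 2 (red) library, with the raw count above each bar and 1 library per bar, so there are no error bars. U2AF1L5 and SMIM11A are lowest in PD-L1 knockdown 1 and highest in PD-L1 knockdown 2, CBS is highest in the control, and CBSL is lowest in PD-L1 knockdown 2.

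The CBS pair showed another pattern, in which both labelled knockdown libraries lay below the control for CBS. For CBSL they did too, but in PD-L1 knockdown 1 the difference was within counting error. CBS had 598 counts in the control, 251 in PD-L1 knockdown 1 and 487 in PD-L1 knockdown 2. CBSL had 78 counts in the control, 69 in PD-L1 knockdown 1 and 13 in PD-L1 knockdown 2. CBS was thus lowest in PD-L1 knockdown 1 and CBSL in PD-L1 knockdown 2.

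CBS stood at 40.6, 17.0 and 30.8 CPM in the control and in PD-L1 knockdown 1 and 2. Its ratio to the control was 0.420 in PD-L1 knockdown 1 (0.361 to 0.487) and 0.760 in PD-L1 knockdown 2 (0.673 to 0.858). CBSL stood at 5.29, 4.68 and 0.823 CPM. Its ratio to the control was 0.884 in PD-L1 knockdown 1 (0.630 to 1.24) and 0.156 in PD-L1 knockdown 2 (0.0793 to 0.282), which is 6.43-fold lower. Between the labelled knockdown libraries CBS was 1.81-fold higher in PD-L1 knockdown 2 (1.55 to 2.12), whereas CBSL was 5.69-fold lower there.

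CBSL took 11.5% of the pair's counts in the control (9.34% to 14.2%), 21.6% in PD-L1 knockdown 1 (17.4% to 26.4%) and 2.60% in PD-L1 knockdown 2 (1.53% to 4.40%). The share of the short-arm copy was here highest in PD-L1 knockdown 1, where the share of U2AF1L5 was lowest.

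The sum of CBS and CBSL was 676 counts in the control, 320 in PD-L1 knockdown 1 and 500 in PD-L1 knockdown 2, or 45.9, 21.7 and 31.7 CPM. The ratio of the sum to the control was 0.473 in PD-L1 knockdown 1 (0.413 to 0.541) and 0.690 in PD-L1 knockdown 2 (0.614 to 0.776), with both libraries below the control. PD-L1 knockdown 2 held 1.46 times the sum of PD-L1 knockdown 1 (1.27 to 1.68), which is less than the 1.81-fold difference of CBS alone. The fitted log2 fold change of the sum was -0.78 ± 0.16 (standard error), between log2 ratios of -1.07 and -0.53 with an SD of 0.38 (n = 2).

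SMIM11A was assigned nearly all counts of its pair, by a counting rule for reads matching both copies that is not given. It had 29 counts in the control, 11 in PD-L1 knockdown 1 and 158 in PD-L1 knockdown 2. SMIM11B had 0, 0 and 1 counts in the same libraries, which is at or under the limit of 3 counts throughout. The counts of SMIM11A, like those of U2AF1L5, lay on both sides of the control.

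SMIM11A stood at 1.97 CPM in the control, 0.746 CPM in PD-L1 knockdown 1 and 10.0 CPM in PD-L1 knockdown 2. The ratio to the control was 0.379 in PD-L1 knockdown 1 (0.171 to 0.782), 2.64-fold lower, and 5.08 in PD-L1 knockdown 2 (3.41 to 7.84). Between the labelled knockdown libraries the ratio was 13.4 (7.29 to 27.4), with a wide interval because PD-L1 knockdown 1 had only 11 counts. The pair sums were 29, 11 and 159 counts, so the sum was 13.5-fold higher in PD-L1 knockdown 2 than in PD-L1 knockdown 1 (7.34 to 27.6). The share of SMIM11B was 0 of 29 counts in the control (Wilson interval up to 11.7%), 0 of 11 in PD-L1 knockdown 1 (up to 25.9%) and 0.629% in PD-L1 knockdown 2 (0.111% to 3.48%). The fitted log2 fold change of the sum was 1.47 ± 0.37 (standard error), between log2 ratios of -1.25 and 2.28 with an SD of 2.50 (n = 2).

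The order of levels on the FPKM scale, which divides by the listed gene length, was as follows in the control. CBS stood at 5.93 FPKM, U2AF1L5 at 2.67, CBSL at 1.31, U2AF1 at 0.606, SMIM11A at 0.465 and SMIM11B at 0. In PD-L1 knockdown 2 the order changed to U2AF1L5 at 7.13, CBS at 4.54, SMIM11A at 2.38, U2AF1 at 0.649, CBSL at 0.205 and SMIM11B at 0.0146 FPKM. In PD-L1 knockdown 1 CBS stood at 2.50, CBSL at 1.17, U2AF1L5 at 0.718, U2AF1 at 0.615, SMIM11A at 0.177 and SMIM11B at 0 FPKM. U2AF1L5 and U2AF1, with 118 and 101 counts there, are neighbours within counting error. The listed lengths are 11112 bases for U2AF1 and 11119 for U2AF1L5, the sum of all annotated exons with retained introns included, whereas the paired coding transcripts are 1019 and 1675 bases long, so the FPKM of these genes depend on that definition.

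The differences were set against those of all well-counted genes. Among 12242 genes whose mean count was at least 50, 0.204% were more than 2-fold from the control in PD-L1 knockdown 1 and 0.417% in PD-L1 knockdown 2, and 0.221% differed that much between the labelled knockdown libraries. Of the 6 members 5 reached that mean, all except SMIM11B. More than 2-fold from the control were U2AF1L5, CBS and SMIM11A in PD-L1 knockdown 1, and U2AF1L5, CBSL and SMIM11A in PD-L1 knockdown 2. U2AF1L5, CBSL and SMIM11A also differed more than 2-fold between the labelled knockdown libraries. Since the members were chosen for such differences, these counts are read no further.

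More than 2-fold lower in PD-L1 knockdown 1 and more than 2-fold higher in PD-L1 knockdown 2 than the control were 2 of the 12242 genes (0.0163%), U2AF1L5 and SMIM11A. More than 4-fold between the labelled knockdown libraries were 4 genes (0.0327%). They were SMIM11A, U2AF1L5, CBSL and MEMO1P1, the last a processed pseudogene of MEMO1 at chr21:36130489-36131376 on the plus strand, which is no member and was picked out after its values were seen. MEMO1P1 had 21 counts in the control, 121 in PD-L1 knockdown 1 and 18 in PD-L1 knockdown 2, so it was high where SMIM11A and U2AF1L5 were low. Of the 31-base words of MEMO1P1, 73.2% are also in another gene. SMIM11A and MEMO1P1 reached the mean of 50 counts only through the library where each was high, and 3 of the 4 genes are members, so these counts too are a description.

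**Figure D3:**
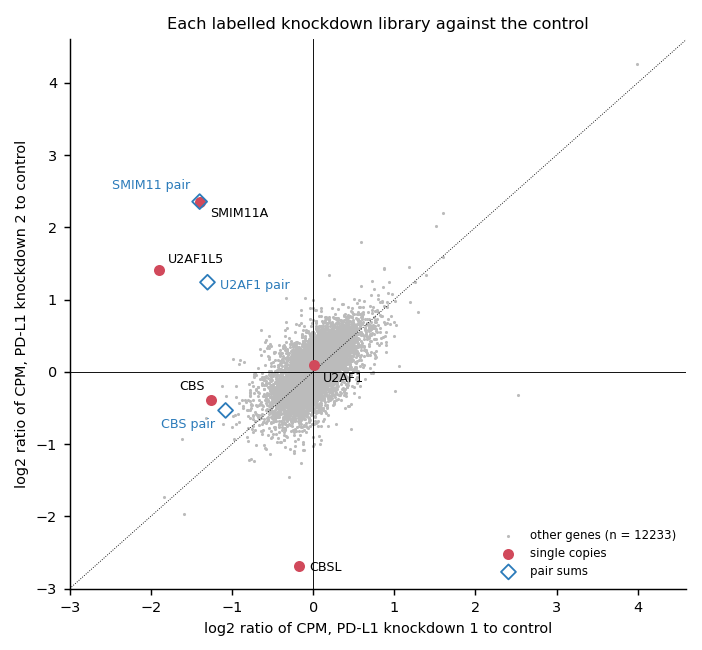
Each grey point is 1 of 12233 other genes whose mean count was at least 50, by its log2 ratio of CPM to the control in PD-L1 knockdown 1 (horizontal) and PD-L1 knockdown 2 (vertical); red points are single copies, blue diamonds pair sums, and the dotted line marks equal ratios. U2AF1L5, SMIM11A and the sums of their pairs lie at the upper left, apart from the other genes, U2AF1 lies near the origin and CBSL at the bottom.

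The genes most like each pair sum were found by the distance between their log2 ratios to the control in the labelled knockdown libraries, over 12237 genes. No gene lay within a distance of 0.25 of the U2AF1 pair. The nearest were THAP8 at a distance of 0.96, RRAD at 1.00 and the ribosomal protein pseudogene RPL13P5 at 1.08. THAP8 had 47, 30 and 75 counts in the control and in PD-L1 knockdown 1 and 2, the same order as the pair but with smaller differences.

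No gene lay within 0.25 of the SMIM11 pair either. The nearest were AC007325.4 at 1.44, RRAD at 1.60 and FBXW9 at 1.74. AC007325.4 had 33, 31 and 100 counts, and RRAD, which encodes a small GTPase, had 48, 38 and 104. For the CBS pair 12 genes lay within 0.25. The nearest were the pseudogene RPL12P14 at 0.14, with 81, 41 and 57 counts, AP001372.2 at 0.16, with 68, 35 and 48 counts, and AC245100.4 at 0.17, with 71, 33 and 46 counts. These 3 genes had fewer counts than the CBS pair sum in every library.

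Genes with more shared sequence showed a wider spread between libraries. Among genes whose mean count was at least 50, the SD of the log2 ratio of PD-L1 knockdown 2 to PD-L1 knockdown 1 was 0.22 over the 8485 genes that share less than 10% of their words with another gene and 0.23 over the 3228 genes sharing 10% to 50%. It was 0.33 over the 445 genes sharing 50% to 90%, CBS among them, and 0.69 over the 80 genes sharing at least 90%. Leaving out U2AF1, U2AF1L5, CBSL and SMIM11A, the last SD was 0.31 over 76 genes, none of which differed more than 2-fold between the labelled knockdown libraries. The classes also differ in depth, with a median of 591 mean counts in the first and 152 in the last, and the part of depth in the spread was not tested.

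Protein-coding pairs were taken that hold at least 100 counts in all and share at least 90% of the words of each copy. Here a word found in many genes was not counted as shared, and 10 pairs were left. SMIM11B then shared 89.8% of its words with SMIM11A, against 90.5% with all words, so the SMIM11 pair fell just short. U2AF1L5 with U2AF1 was the only one of the 10 pairs from chromosome 21. In the other 9 the log2 ratio of the pair sum between PD-L1 knockdown 2 and PD-L1 knockdown 1 ran from -0.64 for RGPD6 with RGPD5 to 0.86 for TBC1D3D with TBC1D3C, against 2.54 for U2AF1L5 with U2AF1. In 2 of these 9 pairs, TBC1D3D with TBC1D3C and TBC1D3D with TBC1D3H, the less counted copy had 0 counts in every library. RGPD5 took 65.5%, 11.9% and 28.3% of the 87, 67 and 46 counts of RGPD6 with RGPD5 in the control and in PD-L1 knockdown 1 and 2. F8A3 took 6.63%, 1.61% and 7.39% of the 166, 186 and 203 counts of F8A1 with F8A3.

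Other annotated pairs of chromosome 21 were read in the same way. SIK1B, a copy of the salt-inducible kinase gene SIK1, had 1234, 1116 and 1601 counts in the control and in PD-L1 knockdown 1 and 2, and SIK1 had 34, 46 and 38. SIK1B took 97.3%, 96.0% and 97.7% of the pair, and the ratio of the sum to the control was 0.916 in PD-L1 knockdown 1 and 1.21 in PD-L1 knockdown 2. GATD3A had 255, 236 and 330 counts and GATD3B 52, 61 and 103. GATD3B took 16.9%, 20.5% and 23.8% of its pair, whose ratio to the control was 0.967 in PD-L1 knockdown 1 and 1.32 in PD-L1 knockdown 2. KCNE1 and KCNE1B had at most 4 counts each, and CRYAA, CRYAA2, FAM243A and FAM243B had 0 in every library.

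**Figure D4:**
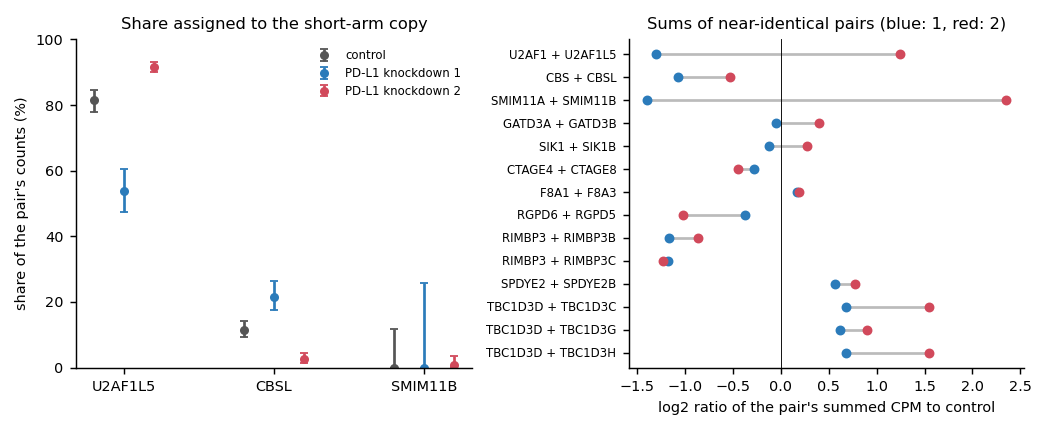
Left, the share of each pair's counts given to the short-arm copy, in percent, by library, with Wilson 95% intervals; right, the log2 ratio of the summed CPM of each pair to the control in PD-L1 knockdown 1 (blue) and PD-L1 knockdown 2 (red). The share of U2AF1L5 is lowest and that of CBSL highest in PD-L1 knockdown 1, and the sums of the U2AF1 and SMIM11 pairs lie on both sides of the control by more than any other pair shown.

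The short-arm neighbours were looked at because U2AF1L5 and CBSL lie side by side there. On chromosome 21, 17 genes begin before 10 Mb and hold at least 30 counts over the libraries, chosen after the values were seen. FP565260.1 had 295, 279 and 320 counts in the control and in PD-L1 knockdown 1 and 2, close to level, and CU633906.1 had 102, 112 and 140. Others were less even, with 34, 30 and 69 counts for CU633967.1 and 20, 21 and 8 for FP236241.1. CU633906.2, a long noncoding RNA gene at chr21:6318434-6360415, had 3 counts in the control, 10 in PD-L1 knockdown 1 and 47 in PD-L1 knockdown 2. FP236383.3, at chr21:8437629-8438551, had 113 counts in the control and 0 in both labelled knockdown libraries.

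The other genes of each pathway were then tested, PD-L1 knockdown libraries against control, with edgeR's quasi-likelihood test adjusted by the Benjamini-Hochberg method over 19849 genes. Of all genes 0.353% passed an adjusted p of 0.05, 49 higher and 21 lower, and 11.7% had an unadjusted p under 0.05. The control is a single library, and the fit gave genes of like mean count 1 common spread, so a gene's own difference between the labelled knockdown libraries did not widen its error.

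Of 24 genes that take part in recognition of the 3′ splice site, 1 was higher and 0 were lower. An unadjusted edgeR p under 0.05 was reached by 6 of them, beside 11.7% of all genes. SF3A2, a subunit of the SF3a complex of the U2 snRNP, had 673 counts in the control, 1016 in PD-L1 knockdown 1 and 1029 in PD-L1 knockdown 2. The fit gave it a log2 fold change of 0.56 ± 0.14 (standard error) with an edgeR adjusted p of 0.0361, but it passed neither with DESeq2 nor without the filter on low counts. The median log2 fold change of the list was 0.04, beside 0.0015 over all genes, and its members ran from -0.39 to 0.73.

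The direct partners of U2AF1 were named for their role and not by the rule for named genes. U2AF2, the large subunit, had 2677, 3250 and 3750 counts in the control and in PD-L1 knockdown 1 and 2, or 43.8, 53.4 and 57.7 FPKM. Its log2 fold change was 0.34 ± 0.12 and the edgeR adjusted p was 0.201. SF1, which binds the branch point, had 4774, 4961 and 5203 counts and an edgeR adjusted p of 0.921. Neither differed from the control by 2-fold in any library, and no gene of the list did, while the U2AF1 pair sum did in both. The pair was chosen for its differences between these libraries and the list was not, so the contrast is a description only.

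Of 25 genes of the methionine cycle, transsulfuration and the use of cysteine, 21 were tested with edgeR and 0 passed in either direction, with 0 also at an unadjusted p under 0.05 and 0 with DESeq2. The best counted were GCLC, the catalytic subunit of glutamate-cysteine ligase, with 4425, 4222 and 4476 counts, AHCY, which splits S-adenosylhomocysteine, with 3781, 4432 and 4546, and MAT2A, which makes S-adenosylmethionine, with 3843, 3519 and 3626. CTH, the enzyme that acts after CBS, had 119, 110 and 138 counts, with an edgeR adjusted p of 0.990 at a log2 fold change of 0.01 ± 0.25, and it too was named for its role. Among genes whose mean count was at least 100, the log2 fold change was 0.33 for TST and 0.23 for MPST, with edgeR adjusted p of 0.480 and 0.538. The median of the list was -0.01.

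Single-copy genes of chromosome 21 near the long-arm copies gave no call either. Of 27 listed, 24 were tested with edgeR, and 0 passed the adjusted p with edgeR or DESeq2. An unadjusted edgeR p under 0.05 was reached by 4 of the 24, beside 11.7% of all genes. PDXK, which encodes pyridoxal kinase, had 8399, 8642 and 8972 counts in the control and in PD-L1 knockdown 1 and 2. SON had 7829, 7322 and 7403, and RRP1B, which lies close to the CBS and U2AF1 segment, had 3375, 3488 and 3495. The largest log2 fold changes among genes whose mean count was at least 100 were 0.48 for SLC37A1, 0.40 for RRP1 and 0.34 for CSTB, with edgeR adjusted p of 0.394, 0.188 and 0.219. The median of the list was 0.02.

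Over all 117 chromosome 21 genes whose mean count was at least 50 other than the members, 1 was higher and 0 were lower by the edgeR adjusted p. That gene was MEMO1P1, with an adjusted p of 0.0207 for a log2 fold change of 1.70 ± 0.41, although its count was above the control in PD-L1 knockdown 1 alone. It was also the only one of the 117 that differed more than 2-fold between the labelled knockdown libraries. Among the less counted genes of the chromosome, CU633906.2 was higher (edgeR adjusted p of 0.0380) and FP236383.3 lower (edgeR adjusted p of 2.04e-27, with both labelled knockdown libraries at 0).

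**Figure D5:**
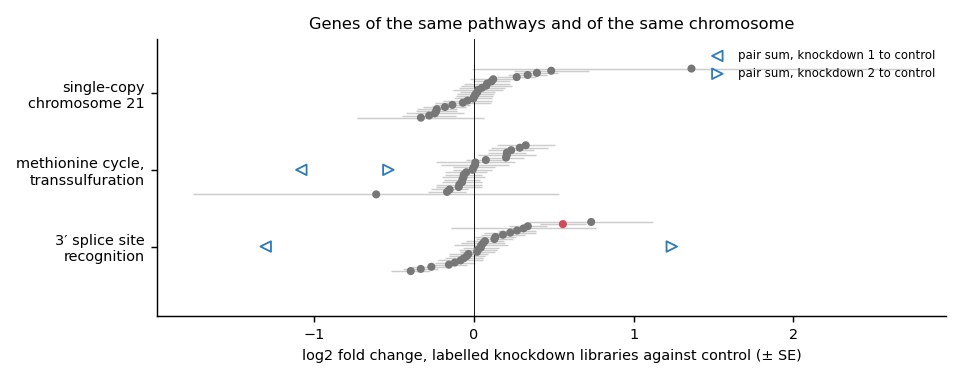
Each point is 1 tested gene of a list, by its edgeR log2 fold change in the labelled knockdown libraries against the control (horizontal, ± standard error); red marks SF3A2, the gene with an adjusted p under 0.05. Blue triangles are the log2 ratios of the U2AF1 and CBS pair sums in PD-L1 knockdown 1 (left-pointing) and PD-L1 knockdown 2 (right-pointing), with the U2AF1 pair between -1.30 and 1.24 and the CBS pair between -1.08 and -0.53.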

How the data were processed

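RNA was poly(A)-selected and sequenced by a service company, per the study's methods. The authors deposited raw counts per gene and FPKM for 1 control and 2 labelled PD-L1 knockdown libraries. The submitters' processing notes name Bowtie2 2.0.6, TopHat2 2.0.9, Cufflinks 2.1.1 and Cuffdiff 2.1.1. The counting tool, the strand setting and the treatment of reads matching several genes are not given in the sources used here. Each deposited FPKM above 0 equalled, within 0.01%, the count over gene length times a constant per library, so FPKM add nothing to the counts.

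Members and lists were chosen with earlier results of these data known. Members carry no p. Sequence was compared over 206534 GENCODE 29 transcripts (GRCh38), which matched 58641 genes by identifier. For all other genes, edgeR 4.0.16 in R 4.3.3 was the test (TMM, glmQLFit, glmQLFTest; at least 10 counts summed over 3 libraries), run by a script tested on simulated data, with DESeq2 1.42.0 as an alternative. Log ratios for distances and list values used a prior count of 2. Counts of the labelled knockdown libraries differed beyond sampling noise (chi-square per degree of freedom 5.57). Named list genes were those called, otherwise the 3 best counted and the 3 largest changes at a mean of at least 100 counts. Alternatives were other size factors, no filter, leaving out a library, FPKM with pseudocounts of 0.1 and 1, and the better counted copy alone. Some genes that these rules name are not reported here.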

Additional observations from a re-analysis of the deposited data

How the results depend on the processing

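With DESeq2 size factors, library totals alone, no filter or the better counted copy alone, the sums of the U2AF1, CBS and SMIM11 pairs kept their direction (0.47 to 0.56, -0.78 to -0.75 and 1.46 to 1.48). Leaving out a labelled knockdown library gave 1.24 without replicate 1 and -1.30 without replicate 2 for the U2AF1 pair, 2.35 and -1.38 for the SMIM11 pair, and -0.53 and -1.07 for the CBS pair, so a single library sets the sign of the U2AF1 and SMIM11 values. As the mean of log2(FPKM + pseudocount), the U2AF1 pair gave -0.0051 with 0.1 and 0.083 with 1, the SMIM11 pair 0.56 and 0.45, and the CBS pair -0.78 and -0.67. That mean weighs both libraries alike on the log scale, whereas a count fit lies nearer to the library with more counts of the pair. Calls among the 3′ splice site genes went from 1 to 0 without the filter and to 0 with DESeq2. Calls among all genes were 70 with edgeR, 67 to 71 under other scalings, 51 without the filter and 6 with DESeq2. The methionine and chromosome 21 lists had 0 calls under both other scalings, without the filter and with DESeq2, the alternatives run for lists. No paired analysis was possible because the control is a single library. SMIM11A had 11 counts in PD-L1 knockdown 1 and SMIM11B 0 to 1 throughout, so ratios of that pair have wide counting intervals.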
